A study of Homo sapiens with 8 samples.

Results

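THP-1 is an established human cell line that the labels class as monocytic leukemia, grown in suspension in serum-containing medium. The results below compare THP-1 cells given 100 µM diclofenac for 48 h with THP-1 cells given an equal amount of the solvent DMSO. They use the 4 arrays titled THP-1 out of the 8 in the series, 2 biological replicates per group. The other 4 arrays hold HL-60 cells, labelled promyelocytic leukemia, under the same dose, time and replication, and they serve here to estimate the spread between replicates and to test whether the effect differed between the lines. The labels do not say whether the biological replicates were separate cultures, so p-values measure the spread between these samples only. No other compound, dose or time was analysed here.

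Diclofenac is a non-steroidal anti-inflammatory drug that blocks the cyclooxygenases PTGS1 and PTGS2, the enzymes that turn arachidonic acid into prostaglandins. Monocytic leukemia cells are held at an immature stage. When such cells mature, the transcription factors CEBPB, KLF4 and EGR1 usually go up, surface receptors such as CD14 and lysosomal proteins accumulate, and the granule proteases of promyelocytes are switched off. The title of the series names cell death, differentiation and the transcription factor AP-1, a dimer of JUN and FOS family proteins, so these groups are described alongside lipid, interferon and cell cycle genes.

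The arrays were Affymetrix human arrays carrying 22277 probe sets, each summarised as 1 linear intensity per array. THP-1 DMSO replicate 2 stood apart. Its median intensity was 241.2, against 109.6 to 123.4 on the other 3 THP-1 arrays. Bacterial control probe sets have no target in these cells, and their median intensity was 78 on that array and 5.6 to 6.7 on the remaining THP-1 arrays. A probe set was taken as above background when it exceeded the 95th percentile of the bacterial controls on its own array, a limit of 238.63 on DMSO replicate 2 and of 33.23 to 49.96 on the other 3 arrays. By this limit 50.3% of probe sets were above background on DMSO replicate 2 and 66.4% to 72.1% on the others. Across probe sets, the 2 DMSO replicates differed by a median of 0.45 on the log2 scale and the 2 diclofenac replicates by 0.16. Changes are therefore given with all arrays and again without DMSO replicate 2, as a second value in brackets where the text does not spell it out. Without it the DMSO group is a single array whose spread is assumed to equal that of the other groups.

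The label was checked against markers. The myeloid genes LYZ, MNDA and FCER1G were above background on all 4 THP-1 arrays, with LYZ between 9230.5 and 15094. They do not tell the lines apart, since FCER1G was at 993.6 to 1730.6 on the THP-1 arrays and 3118.8 to 4064.3 on the HL-60 arrays, and MNDA at 2088.8 to 5429.5 and 5330 to 6508.2. The class II gene HLA-DRA was at 539.3 to 561.2 on the THP-1 arrays and at 4.5 to 52.2 on the HL-60 arrays, and MEF2C was at 1159.1 to 1412.9 against 83.4 to 145.4. HLA-DRA and MEF2C were chosen after their values were seen. Against the label, MEIS1, a gene usually high in THP-1, was lower on the THP-1 arrays (237.5 to 383.8) than on the HL-60 arrays (635.3 to 684.3). Of the promyelocyte markers, MPO was at 170.6 to 235.6 on the THP-1 arrays and 40.6 to 61.2 on the HL-60 arrays, AZU1 at 7212.9 to 9350.6 and 1177.8 to 1622.3 and PRTN3 at 9716.1 to 13711.5 and 3439.9 to 4181.6, so these 3 also went against the labels. CD14, the monocyte coreceptor for bacterial lipopolysaccharide, was at 55.6 and 45.2 under DMSO. Over all THP-1 arrays it was at 45.2 to 332.9, and on the HL-60 arrays at 3.2 to 28.9. The monocytic marker CSF1R was at 221.6 to 426.3 against 78.6 to 138, so both went with the label. The ranges of LYZ, ITGAM, SPI1 and CD4 overlapped between the lines, as did those of the promyelocyte markers ELANE, CTSG and MS4A3. Markers of T cells, B cells, red cells, megakaryocytes and epithelium are given with the last gene groups below.

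With all arrays, 29 of 22215 probe sets rose in THP-1 under diclofenac (0.131%) and 1 fell (0.0045%) at an adjusted p of 0.05 in limma, a linear model fitted over all probe sets with Benjamini-Hochberg adjustment. Counted by gene, 19 of 11963 rose (0.159%) and 1 fell (0.00836%). A gene with several probe sets was read from the one whose mean log2 value over all 8 arrays was highest, and a probe set that may bind other transcripts (suffix x_at) was used only where a gene had no other. Without DMSO replicate 2, 57 probe sets rose (0.257%) and 3 fell (0.0135%). By gene, 35 rose (0.293%) and 2 fell (0.0167%), and 18 genes were called in the same direction in both fits. At an unadjusted p under 0.05, 745 genes were higher (6.23%) and 662 were lower (5.53%), and without DMSO replicate 2 the counts were 697 (5.83%) and 581 (4.86%). After normalization both diclofenac arrays were above both DMSO arrays for 2324 genes (19.4%) and below them for 2541 (21.2%). The median change over all genes was -0.01 on the log2 scale in both fits, and 48.5% of genes lay above 0 (49.1%). All changes below are differences of log2(intensity + 50) after quantile normalization, diclofenac minus DMSO, and a fold is 2 to the power of such a change. The added 50 makes the folds of dim genes smaller.

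**Figure D1:**
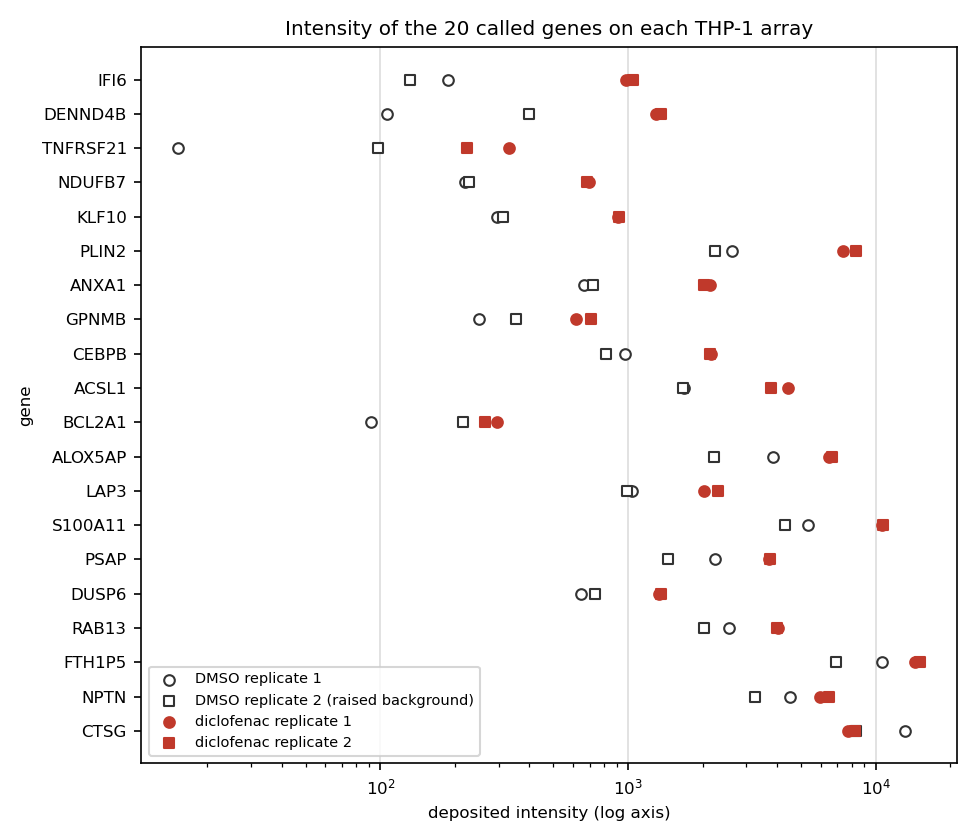
Deposited intensity on each of the 4 THP-1 arrays (log axis) for the 20 genes past an adjusted p of 0.05 in limma, ordered by log2 change; open symbols are DMSO and filled symbols diclofenac. For the 19 genes that rose, both filled symbols lie to the right of both open ones, while for CTSG the diclofenac symbols lie to the left of DMSO replicate 1 and next to DMSO replicate 2.

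Promoters of the genes that rose were searched for the short motifs given below, and motifs of KLF4 and EGR1 were not among them. The promoters are from RefSeq on build GRCh38.p14, in windows of 250 bases before to 50 after each gene's start. Of the 19 genes 16 matched the table. The motifs were read on both strands. The AP-1 motif TGANTCA was in 1 of the 16 promoters and in 7.76% of all 27305 promoters, the cyclic AMP response element TGACGTCA in 1 and 1.98%, the composite C/EBP-ATF element TGATGNAA in 1 and 3.67%, and the C/EBP half-site pair TTGCNNAA in 3 and 10.6%. The interferon response element, read as GAAA, 2 free bases and GAAA again, was in 3 of 16 and in 3.65% of all promoters. Over the 9563 promoters of genes on the array the shares were, in the same order, 5.43%, 3.06%, 2.25%, 8.13% and 2.97%. A match describes letters and is not evidence of binding. The promoters shown are those of the interferon-stimulated genes that rose, IFI6 and LAP3, and of BCL2A1, GPNMB and ANXA1 from the survival, macrophage and annexin groups. They are given 5′ to 3′ on the gene's strand with every match in capitals. IFI6 (chr1:27672143-27672442, minus strand) holds the interferon letters at 3 positions, 156, 115 and 93 bases before its start. LAP3 (chr4:17576948-17577247, plus strand) holds 1 interferon match, the cyclic AMP element and 2 C/EBP matches. BCL2A1 (chr15:79971147-79971446, minus strand) holds an interferon match 133 bases and a C/EBP-ATF match 63 bases before its start. GPNMB (chr7:23246525-23246824, plus strand) holds the AP-1 match 134 bases before its start, and ANXA1 (chr9:73151615-73151914, plus strand) a C/EBP match 143 bases before it.
IFI6: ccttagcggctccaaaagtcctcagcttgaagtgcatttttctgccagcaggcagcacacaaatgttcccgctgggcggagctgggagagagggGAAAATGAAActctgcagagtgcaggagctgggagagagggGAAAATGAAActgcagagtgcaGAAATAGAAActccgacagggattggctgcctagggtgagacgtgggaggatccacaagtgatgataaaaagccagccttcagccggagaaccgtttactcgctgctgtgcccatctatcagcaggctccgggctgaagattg
LAP3: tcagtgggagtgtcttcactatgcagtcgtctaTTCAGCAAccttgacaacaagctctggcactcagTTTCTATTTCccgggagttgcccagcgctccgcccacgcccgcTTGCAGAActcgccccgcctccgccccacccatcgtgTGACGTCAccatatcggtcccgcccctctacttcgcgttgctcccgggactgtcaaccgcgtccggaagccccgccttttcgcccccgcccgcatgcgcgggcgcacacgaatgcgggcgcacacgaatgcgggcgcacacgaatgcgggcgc
BCL2A1: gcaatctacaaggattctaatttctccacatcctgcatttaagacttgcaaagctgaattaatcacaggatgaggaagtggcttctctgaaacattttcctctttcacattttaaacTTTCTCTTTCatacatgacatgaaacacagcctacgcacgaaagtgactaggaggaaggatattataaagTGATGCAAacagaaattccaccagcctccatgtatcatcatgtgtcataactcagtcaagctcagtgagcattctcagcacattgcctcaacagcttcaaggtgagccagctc
GPNMB: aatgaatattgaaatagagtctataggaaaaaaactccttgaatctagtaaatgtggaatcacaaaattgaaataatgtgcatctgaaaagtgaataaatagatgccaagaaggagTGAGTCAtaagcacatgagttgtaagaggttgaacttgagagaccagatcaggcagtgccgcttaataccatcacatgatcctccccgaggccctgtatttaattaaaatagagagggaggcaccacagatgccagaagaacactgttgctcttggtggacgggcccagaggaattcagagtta
ANXA1: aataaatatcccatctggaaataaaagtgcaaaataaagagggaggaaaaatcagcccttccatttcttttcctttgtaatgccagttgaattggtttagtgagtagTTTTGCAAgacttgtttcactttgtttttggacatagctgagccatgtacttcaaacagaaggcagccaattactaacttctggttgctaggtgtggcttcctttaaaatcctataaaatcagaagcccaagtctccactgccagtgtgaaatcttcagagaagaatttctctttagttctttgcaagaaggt

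Lipid storage genes held the smallest p of the comparison. PLIN2 (probe set 209122_at, chromosome 9) encodes the protein that coats lipid droplets. Its intensity was 2625.7 and 2246.3 on the DMSO arrays and 7395.7 and 8348.2 on the diclofenac arrays. Both diclofenac arrays were above both DMSO arrays, a change of 1.54 (SE 0.08), or 2.91-fold, with a limma adjusted p of 0.00104. Without DMSO replicate 2 it rose by 1.62 (adjusted p 0.00185). A second PLIN2 probe set that may bind other transcripts, 215895_x_at, pointed the other way. It was at 55.3 and 309.3 under DMSO and below background under diclofenac (17.4 and 23.5), at least 1.66-fold lower without a call (limma adjusted p 0.408), and averaging the 2 probe sets gave a change of 0.18.

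ACSL1 (201963_at, chromosome 4), which activates long-chain fatty acids by joining them to coenzyme A, was at 1675.4 and 1668.4 under DMSO and at 4444.1 and 3767.3 under diclofenac. It rose 2.17-fold (log2 change 1.12, SE 0.11, limma adjusted p 0.0176), and by 1.26 without DMSO replicate 2 (adjusted p 0.0111). Its second probe set, 207275_s_at, also rose, by 1.65 (1.29). CD36, a scavenger receptor that takes up fatty acids and oxidised lipoproteins, had 2 probe sets above background. The probe set 206488_s_at was at 146.3 and 251.6 under DMSO and 472.5 and 422.5 under diclofenac, and it rose by 1.32 (SE 0.15), and by 1.27 without DMSO replicate 2. The probe set that represents the gene, 209555_s_at, changed by 1.12 and missed the threshold with all arrays (limma adjusted p 0.058), and it passed without DMSO replicate 2 (log2 change 1.41, adjusted p 0.00512). ACSL4, a fatty acid ligase that prefers arachidonic acid, was at 118.6 and 282.8 against 486.4 and 506, a change of 1.46 (1.63) that was not called. Of 28 measured genes of lipid droplets and fatty acid handling, 2 rose and 19 lay above 0 (17 without DMSO replicate 2). Among all genes 0.159% rose and 48.5% lay above 0 (49.1%). The median of the list was 0.16 beside -0.01 for all genes, and 0.15 without that array.

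The eicosanoid pathway turns membrane arachidonic acid into prostaglandins and leukotrienes. ALOX5AP (204174_at, chromosome 13), which presents arachidonic acid to 5-lipoxygenase for leukotriene synthesis, was at 3860.3 and 2219.4 under DMSO and 6482.6 and 6691.5 under diclofenac. It rose 2.05-fold (log2 change 1.04, SE 0.13, limma adjusted p 0.0363), and by 0.82 without DMSO replicate 2 (adjusted p 0.014). ANXA1 (201012_at, chromosome 9), an anti-inflammatory protein known to restrain phospholipase A2, was at 665.6 and 720.6 under DMSO and 2143.4 and 2030.3 under diclofenac. ANXA1 rose 2.80-fold (log2 change 1.49, SE 0.10, limma adjusted p 0.00269), and by 1.55 without DMSO replicate 2 (adjusted p 0.00185). ANXA1 is counted with the annexins and not in the eicosanoid list.

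The 2 targets of the drug were not called. PTGS1 was at 126.1 and 469.3 under DMSO and at 202.4 and 162.9 under diclofenac, so the groups overlapped, and its change was -0.25 with all arrays and 0.33 without DMSO replicate 2. PTGS2 was not above background on either DMSO array (26.4 and 32.4) and was at 63.2 and 68.5 under diclofenac, with a limma adjusted p of 0.419. PTGER4, a receptor for prostaglandin E2, was at 865.5 and 798.5 under DMSO and at 1309.4 and 1272.5 under diclofenac, a change of 0.59 (0.54) that was not called. TBXAS1, the thromboxane synthase, was not above background under DMSO and reached 100.1 and 95.9 under diclofenac. Over the 26 measured genes of the pathway 1 rose and 14 lay above 0 (16), beside 0.159% and 48.5% (49.1%) of all genes. The median was 0.13 (0.17).

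Calcium-binding S100 proteins and annexins were next. S100A11 (200660_at, chromosome 1) was at 5328.4 and 4291.8 under DMSO and 10572 and 10752.9 under diclofenac, and rose 1.95-fold (log2 change 0.96, SE 0.10, limma adjusted p 0.0201), and by 1.05 without DMSO replicate 2 (adjusted p 0.0332). S100P was at 255.7 and 127.3 under DMSO and at 1009.1 and 1023 under diclofenac. The second DMSO value is below the background limit of its array, and the change of 2.44 had a limma adjusted p of 0.0823. Without that array S100P rose by 1.71 (SE 0.08, adjusted p 0.000932). S100A10 changed by 0.62 (0.55) and S100A8, already at 11482.5 or more on each array, by 0.34 (0.41), neither called. Of 16 S100 genes 1 rose and 11 lay above 0 (12) with a median of 0.29 (0.23). Of 11 annexins 1 rose and 6 lay above 0 (7) with a median of 0.06 (0.13). The shares of all genes were 0.159% and 48.5% (49.1%).

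Transcription factors and signalling feedback genes that respond within hours to growth and stress signals formed the third group. CEBPB (212501_at, chromosome 20), a leucine-zipper factor of the macrophage programme, was at 975.7 and 816.3 under DMSO and at 2163.3 and 2136.2 under diclofenac. It rose 2.25-fold (log2 change 1.17, SE 0.11, limma adjusted p 0.0124), and by 1.07 without DMSO replicate 2 (adjusted p 0.0092). KLF10 (202393_s_at, chromosome 8), a zinc-finger factor induced by transforming growth factor beta, was at 294.5 and 311.7 against 910.7 and 920.1 and rose 3.13-fold (log2 change 1.65, SE 0.23, limma adjusted p 0.0493), and by 1.41 without DMSO replicate 2 (adjusted p 0.0482). DUSP6 (208891_at, chromosome 12), a phosphatase that switches off ERK kinases, was at 647.2 and 736.5 against 1339.3 and 1359.6 and rose 1.86-fold (log2 change 0.89, SE 0.10, limma adjusted p 0.0269), and by 0.98 without DMSO replicate 2 (adjusted p 0.0111). In all 3 genes the groups were well separated and the diclofenac replicates nearly coincided. Both other DUSP6 probe sets pointed the same way, by 1.59 (0.98) and 1.56 (1.55), without a call.

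EGR1, an immediate early zinc-finger factor, was at 444.2 and 462.1 under DMSO and at 900.2 and 923.6 under diclofenac, a change of 1.01 that was not called (limma adjusted p 0.174), and of 0.89 without DMSO replicate 2. KLF4 changed by 1.29 (0.84) and SIK1, a kinase induced by cyclic AMP, by 1.80 (1.36), neither called. PLAUR, the urokinase receptor, was at 1551.5 and 1421.7 against 2844.2 and 2860 and lay at the threshold in both fits (log2 change 0.79, limma adjusted p 0.0515, and 0.0499 without DMSO replicate 2). Of 26 measured immediate early and ERK feedback genes 2 rose, 10 were higher at an unadjusted p under 0.05 and 23 lay above 0, beside 0.159%, 6.23% and 48.5% of all genes. Their median was 0.46, and 0.44 without DMSO replicate 2.

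No AP-1 subunit was called. FOS was at 93.7 and 43.1 under DMSO and at 328.5 and 294.2 under diclofenac, a change of 1.92 (SE 0.47, limma adjusted p 0.252) and of 1.26 without DMSO replicate 2. JUN was at 82.6 and 299.5 under DMSO and at 404.7 and 246.7 under diclofenac, so its deposited values overlapped, and it changed by 1.03 (SE 0.39, adjusted p 0.43). JUND changed by 0.28 (0.26) and MAFF by 1.04 (0.50), and without DMSO replicate 2 JUN changed by 1.41. Of 13 AP-1 genes 10 lay above 0 in each fit, beside 48.5% and 49.1% of all genes. Their median was 0.50, and 0.28 without DMSO replicate 2. Of the lineage factors, IRF8 changed by -0.35 (-0.31) and MYC, which drives growth and is usually shut off in maturing cells, by -0.25 (-0.24), and with all arrays both lay above 0 when each array was centred on its median instead.

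Interferon-stimulated genes included the largest rise with all arrays. IFI6 (204415_at, chromosome 1), a mitochondrial antiviral protein that protects from cell death and whose promoter held 3 matches to the interferon letters, was at 187.7 and 131.4 under DMSO and at 981.2 and 1045.3 under diclofenac. The second DMSO value is below its array's background. IFI6 rose 5.99-fold with all arrays (log2 change 2.58, SE 0.34, limma adjusted p 0.0425) and by 2.05 without DMSO replicate 2 (SE 0.13, adjusted p 0.00293). LAP3 (217933_s_at, chromosome 4), a leucine aminopeptidase that trims peptides, was at 1034.5 and 994.9 against 2024.4 and 2308.3 and rose 1.96-fold (log2 change 0.97, SE 0.11, adjusted p 0.0259), and by 1.01 without DMSO replicate 2 (adjusted p 0.035).

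IFI16, a nuclear DNA sensor, was at 427.7 and 339.4 under DMSO and at 933.5 and 851.3 under diclofenac. Its change of 1.31 was not called with all arrays and it rose by 0.91 without DMSO replicate 2 (limma adjusted p 0.0332). IFIT1, which binds foreign RNA, was not above background under DMSO and was at 135.7 and 216.3 under diclofenac, at least 1.84-fold higher by the bound used for such genes, with no call (adjusted p 0.199). That bound sets the mean of the measured group against the lowest signal above background on each array of the other. IFITM3, which blocks viral entry, changed by 1.53 and by 0.85 without DMSO replicate 2, neither called. IFITM3 was read from 212203_x_at, which may bind other transcripts. Of 33 measured interferon-stimulated genes 2 rose, 10 were higher at an unadjusted p under 0.05 and 24 lay above 0, beside 0.159%, 6.23% and 48.5% of all genes, with a median of 0.37. Without DMSO replicate 2, 28 lay above 0 and the median was 0.41. Class I antigen presentation had no called gene, 10 of 13 members above 0 (12) and a median of 0.26 (0.26). HLA-B changed by 0.31 (0.34) and B2M, its light chain, by 0.26 (0.28). HLA-B was read from 209140_x_at, which may also bind other transcripts.

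The BCL2 family and the death receptors, with 16 measured genes each, held 1 gene each that rose, beside 0.159% of all genes. The NF-kB inflammatory genes held no call with all arrays. BCL2A1 (205681_at, chromosome 15), a BCL2-family protein that protects from apoptosis and is induced by NF-kB, was at 91.5 and 216.4 under DMSO and at 295.7 and 264.6 under diclofenac. It rose 2.13-fold (log2 change 1.09, SE 0.11, limma adjusted p 0.0176). The second DMSO value is below its array's background, and without that array BCL2A1 rose by 1.15 (adjusted p 0.00938). TNFRSF21 (218856_at, chromosome 6), a death-domain receptor also called DR6, was at 15.3 and 97.9 under DMSO, both below background, and at 330.2 and 223.6 under diclofenac. It was at least 2.64-fold higher with all arrays (limma adjusted p 0.0258). Without DMSO replicate 2 TNFRSF21 changed by 2.28, fitted against a DMSO value below background. Its second probe set, 214581_x_at, rose by 2.19 (1.91). Of the other death receptor and ligand genes none was called, and the median of the 16 measured was 0.12, and 0.01 without DMSO replicate 2.

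The cytokine IL1B (39402_at) was at 92.7 and 323.9 under DMSO and at 494.5 and 482.7 under diclofenac. It rose by 1.85 (SE 0.23, limma adjusted p 0.0408) only in the fit without DMSO replicate 2, its change with all arrays being 1.42 (adjusted p 0.167). Its second probe set, 205067_at, changed by 0.25 with all arrays (0.74). The neutrophil chemokine CXCL8 (211506_s_at) was not above background under DMSO and was at 262.8 and 223.3 under diclofenac, at least 2.40-fold higher, with a call only without DMSO replicate 2 (adjusted p 0.0488). Its other probe set, 202859_x_at, was brighter, at 4736.8 and 3019.8 under DMSO and 3621.1 and 4246.7 under diclofenac, and changed by -0.10 (-0.22), so the 2 probe sets of CXCL8 disagreed. CCL2, a monocyte chemokine, was not above background under DMSO and was at 69.4 and 147.4 under diclofenac. TNFAIP3, an NF-kB feedback inhibitor, changed by 0.84 (0.80) without a call. Of 27 measured genes of this group none was called with all arrays, 10 were higher at an unadjusted p under 0.05 and 21 lay above 0, beside 6.23% and 48.5% of all genes, with a median of 0.45, and 0.31 without DMSO replicate 2.

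Lysosomal and macrophage genes were the fifth group. GPNMB (201141_at, chromosome 7), a membrane glycoprotein of macrophage lysosomes, was at 251.2 and 353.3 under DMSO and at 613.9 and 708.6 under diclofenac, and rose 2.27-fold (log2 change 1.18, SE 0.11, limma adjusted p 0.0124), and by 1.15 without DMSO replicate 2 (adjusted p 0.0111). PSAP (200871_s_at, chromosome 10), the precursor of the saposins that help degrade sphingolipids, was at 2250.1 and 1450.5 against 3699.1 and 3753.1 and rose 1.89-fold (log2 change 0.92, SE 0.12, limma adjusted p 0.0448), and by 0.75 without DMSO replicate 2 (adjusted p 0.0322). LIPA, the acid lipase, was at 1092.6 and 1141.7 against 1925.9 and 1812 and rose without DMSO replicate 2 (log2 change 0.73, adjusted p 0.0452). The sialidase NEU1 changed by 0.99 (0.79) and the protease CTSB by 0.87 (0.60), neither called on the probe set that represents the gene. Another CTSB probe set, 200838_at, was at 855 and 490 under DMSO and at 1917.5 and 1773.2 under diclofenac. With all arrays 200838_at was not called (limma adjusted p 0.108). It was called only without DMSO replicate 2, with a change of 1.04. Of 44 measured lysosome and autophagy genes 1 rose, 15 were higher at an unadjusted p under 0.05 (18 without DMSO replicate 2) and 35 lay above 0 in each fit, beside 0.159%, 6.23% and 48.5% of all genes. Their median was 0.23, and 0.26 without that array. The 1 that rose is PSAP, since GPNMB is counted with the monocyte and macrophage markers.

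Among monocyte and macrophage markers CD14 was at 55.6 and 45.2 under DMSO and at 332.9 and 310.5 under diclofenac. The second DMSO value is below its array's background. The change was 2.18 (SE 0.40, limma adjusted p 0.122), and 1.76 without DMSO replicate 2 (adjusted p 0.158), not called in either fit. FCAR, the receptor for immunoglobulin A, was at 56.3 and 242.3 under DMSO and at 265.6 and 206.8 under diclofenac and was called only without DMSO replicate 2 (log2 change 1.37, adjusted p 0.0322). Its 4 other probe sets were not called, and 3 of them changed by less than 0 with all arrays. Without DMSO replicate 2 these 4 probe sets changed by 0.61, -0.43, 0.61 and -0.02. MNDA changed by 0.86 (0.66) and FCER1G by 0.57 (0.71), neither called, and ITGAM, the alpha chain of the integrin CD11b, by 0.39 (0.49). FGR, a myeloid SRC-family kinase, changed by 1.78 (1.19) and QPCT, a secreted glutaminyl cyclase, by 2.00 (1.44), neither called. FN1, fibronectin, which is counted with the matrix genes, changed by 2.13 (1.57) without a call. FGR, QPCT and FN1 were named for the size of their change. FOS, SIK1, MAFF, FGR, QPCT and FN1, like CD14, were above background on 1 of the 2 DMSO arrays. Of 41 measured markers 1 rose, 14 were higher and none lower at an unadjusted p under 0.05, and 30 lay above 0, beside 0.159%, 6.23%, 5.53% and 48.5% of all genes. Their median was 0.41, and 0.28 without DMSO replicate 2, and the lowest change among them was -0.84 (-0.70). The protease MMP9 was at 504.5 and 689.6 against 1069.6 and 1344.6, a change of 0.95 (1.12) that was not called.

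The remaining called genes belong to no common group. DENND4B (202860_at, chromosome 1), an activator of Rab GTPases, was at 106.4 and 400 under DMSO and at 1296.4 and 1353.6 under diclofenac and rose 5.41-fold (log2 change 2.44, SE 0.27, limma adjusted p 0.0217), and by 3.05 without DMSO replicate 2. NDUFB7 (202839_s_at, chromosome 19), a subunit of respiratory complex I, was at 220.6 and 227.3 against 695.4 and 681 and rose 3.25-fold (log2 change 1.70, SE 0.23, limma adjusted p 0.0496). The second DMSO value is below its array's background, and without that array NDUFB7 rose 2.54-fold (adjusted p 0.0111). Its second probe set, 211407_at, changed by -1.13 (-0.71) without a call, and averaging both gave 0.29. Of 56 measured genes of the respiratory chain and ATP synthase NDUFB7 alone was called and 18 lay above 0 (16). Among all genes 0.167% were called and 48.5% lay above 0 (49.1%). The median of the list was -0.08 (-0.05).

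RAB13 (202252_at, chromosome 1), a GTPase of vesicle traffic, rose 1.61-fold from 2553.4 and 2024.9 to 4052.2 and 4008.2, and 1.61-fold without DMSO replicate 2. NPTN (202228_s_at, chromosome 15), a membrane protein of the immunoglobulin family, rose 1.46-fold from 4493.4 and 3257.9 to 5962.8 and 6451.9. FTH1P5 (211628_x_at, chromosome 6) is a pseudogene of ferritin heavy chain, and its probe set may bind the parent transcript, so its rise of 1.53-fold cannot be assigned to the pseudogene. NPTN and FTH1P5 were not called without DMSO replicate 2 (limma adjusted p 0.0923 and 0.0758).

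Beside these, 10 called probe sets did not represent a named gene, and all 10 rose. They include the SAT1 probe sets 210592_s_at (642.7 and 685.5 under DMSO, 1486.7 and 1570.4 under diclofenac) and 213988_s_at (114.1 and 130.2 against 630.4 and 614.5). On 213988_s_at the second DMSO value is below its array's background. SAT1, an acetyltransferase that starts polyamine breakdown, thus rose by 1.12 (1.15) and 2.22 (1.95). The probe set that represents it changed by 0.94 (0.81), with a limma adjusted p of 0.058 with all arrays. HMGN4, a nucleosome-binding protein, rose by 1.28 (1.05) on 202579_x_at. The probe set that represents HMGN4 changed by 1.05 (0.92), with an adjusted p of 0.0512 with all arrays. MCL1, a short-lived BCL2-family survival protein, rose by 0.81 (0.89) on 200798_x_at, whereas the probe set that represents it changed by 0.07 (0.32). RIOK3, an atypical kinase, rose by 1.45 (1.56) on 202131_s_at, whereas the probe set that represents it changed by 0.21 (0.15). The probe sets of MCL1, RIOK3 and MTDH therefore disagreed in the size of their change. These genes were named because 1 of their probe sets was called.

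**Figure D2:**
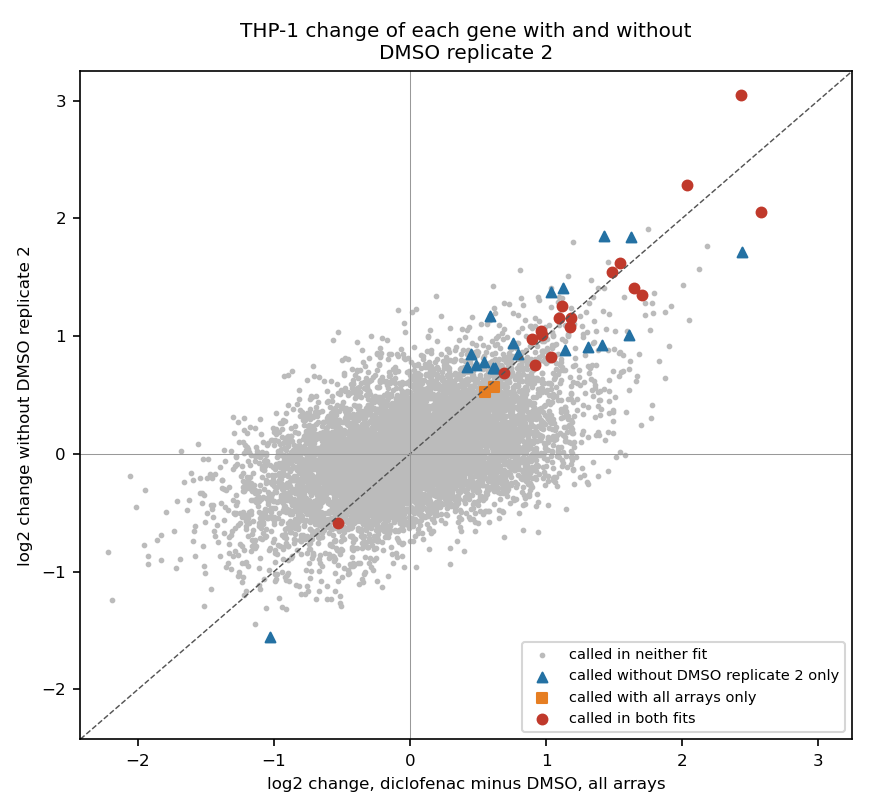
Log2 change of each of 11963 genes with all arrays (horizontal) and without DMSO replicate 2 (vertical), diclofenac minus DMSO; the dashed line marks equal values. The 18 genes called in both fits lie along the line, 19 genes were called only without DMSO replicate 2, and NPTN and FTH1P5 only with all arrays.

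Of the 19 genes called only without DMSO replicate 2, 18 rose and 1 fell. ASNS, the asparagine synthetase, was at 556.2 and 321.4 under DMSO and at 1172.1 and 1217.2 under diclofenac, with a change of 1.61 and, without DMSO replicate 2, of 1.00 (limma adjusted p 0.0488). SLC7A11 and SLC3A2, the 2 chains of the cystine transporter, changed by 0.98 (0.87) and 0.66 (0.59) without a call. Of 39 measured genes of the ATF4 amino acid response 1 rose (CEBPB), 11 were higher at an unadjusted p under 0.05 and 32 lay above 0 in each fit, beside 0.159%, 6.23% and 48.5% of all genes. Their median was 0.20, and 0.15 without DMSO replicate 2. HMOX1, which degrades heme, was at 141.1 and 112.2, the second below its array's background, against 354.6 and 309.1 and rose by 0.93 without DMSO replicate 2 (adjusted p 0.0337). CAPG, an actin-capping protein, was at 560 and 744 against 1166.7 and 1136.5 and rose by 0.94. U2AF2, a splicing factor, was at 758.3 and 1496.6 against 1965 and 1678.8, a change of 0.59 with all arrays and of 1.17 without DMSO replicate 2. Its 2 other probe sets changed by 0.10 and 0.01 with all arrays, and by -0.11 and -0.22 without DMSO replicate 2. LMNA, lamin A, and VEGFA, the vascular growth factor, changed by 1.91 and 1.83 with all arrays and by 0.92 and 0.79 without that array, none called. On DMSO replicate 2 both were below background, at 124.7 and 153.8.

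Few genes were lower by the test. CTSG (205653_at, chromosome 14), the granule protease cathepsin G, was at 13192.1 and 8333.8 under DMSO and at 7769.1 and 8281.5 under diclofenac. On the deposited scale the diclofenac arrays lay just below DMSO replicate 2. After normalization CTSG fell by 0.53 on the log2 scale (SE 0.07, limma adjusted p 0.0352), and by 0.59 without DMSO replicate 2 (adjusted p 0.0495). The call was lost on the scale as deposited, at -0.38, and with median centring, at -0.03. OGDHL, a mitochondrial dehydrogenase subunit, was at 124.3 and 98 under DMSO, the second below its array's background, and was not above background under diclofenac (18.2 and 7.8). It was at least 1.33-fold lower and was called only without DMSO replicate 2 (adjusted p 0.0343).

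Other granule and promyelocyte genes were not called. MS4A3, a cell cycle regulator of immature myeloid cells, was at 3822.4 and 3016.6 under DMSO and at 2528.8 and 2845 under diclofenac, a change of -0.49 (limma adjusted p 0.122), and of -0.48 without DMSO replicate 2. The elastase ELANE changed by -0.20 (-0.17) and complement factor CFD by 0.22 (0.21). MPO, the myeloperoxidase, changed by 0.18 with all arrays and -0.16 without DMSO replicate 2. Of 18 measured genes 1 fell and 5 lay above 0 (7), beside 0.00836% and 48.5% (49.1%) of all genes. Their median was -0.05 (-0.09).

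Genes of DNA replication and mitosis had no call, and most of their values lay below 0. Of 34 measured replication genes 6 lay above 0, and 4 without DMSO replicate 2, against 48.5% and 49.1% of all genes. Their median was -0.23, and -0.21 without that array, with 9 lower and 1 higher at an unadjusted p under 0.05, beside 5.53% and 6.23% of all genes. CCNE1, the cyclin that opens S phase, was at 673.2 and 746.1 under DMSO and at 330.9 and 395.1 under diclofenac, a change of -0.83 (SE 0.19, limma adjusted p 0.20), and of -0.81 without DMSO replicate 2. GINS1, part of the replicative helicase, was at 2740.6 and 2235.4 against 1571.7 and 1907.5 and changed by -0.64 (adjusted p 0.108), and by -0.62 without DMSO replicate 2. RRM2, a subunit of ribonucleotide reductase, was at 5649.7 and 4201.7 against 3776.6 and 4178 and changed by -0.48 (adjusted p 0.0814), and by -0.48 without DMSO replicate 2.

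Of 32 measured mitosis genes 10 lay above 0, and 4 without DMSO replicate 2, against 48.5% and 49.1% of all genes. Their medians were -0.16 and -0.14. CENPE, a kinetochore motor, was at 928 and 903.1 under DMSO and at 563.9 and 630.7 under diclofenac and changed by -0.59 (-0.61). CCNB2, a mitotic cyclin, changed by -0.42 (-0.34), NUSAP1 by -0.25 (-0.17) and CKS2 by -0.30 (-0.17). These directions depend on the scaling. Relative to the median of all genes the replication list lay at -0.22 after quantile normalization and at -0.16 with background subtraction, and at 0.07 on the scale as deposited or with median centring. The mitosis list lay at -0.14 and -0.11 in the first pair and at 0.09 in the second. Without DMSO replicate 2 and on the deposited scale the lists were again below all genes, at -0.25 and -0.16, an alternative chosen after seeing the data.

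**Figure D3:**
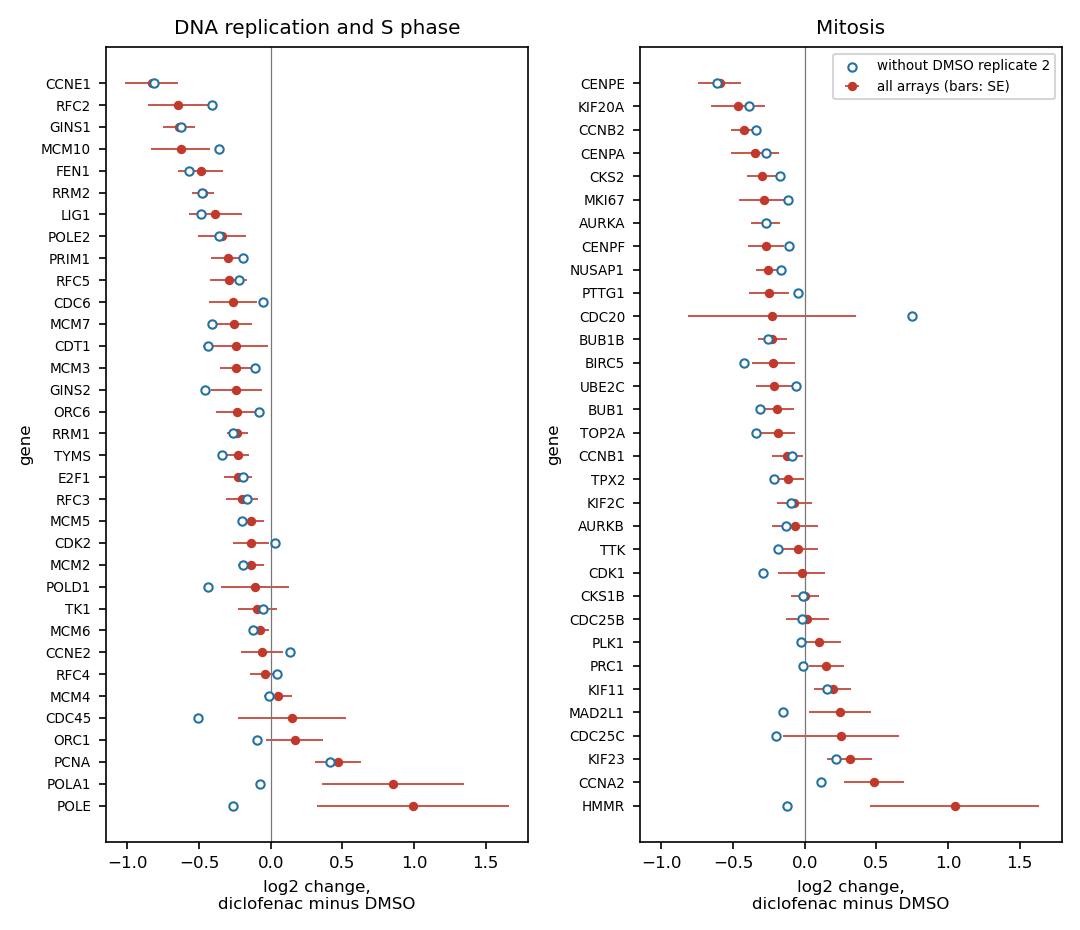
Log2 change (diclofenac minus DMSO) of each measured gene of the replication and mitosis lists in THP-1; filled points with bars give the value and its SE with all arrays, open points the value without DMSO replicate 2. Of 34 replication genes 6 and of 32 mitosis genes 10 lie above 0 with all arrays, 4 in each list without that array.

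Genes of cholesterol synthesis and uptake included no call either, with 7 of 18 above 0 against 48.5% of all genes. Their median was -0.06, and -0.21 without DMSO replicate 2. FDPS, IDI1 and MSMO1, enzymes of the pathway, changed by -0.25, -0.25 and -0.27 (-0.35, -0.23 and -0.24). With all arrays all 3 lay above 0 with median centring. IDI1 was read from 208881_x_at, which may bind other transcripts. Of 31 splicing genes 10 lay above 0, with medians of -0.13 and -0.12 in the 2 fits. This list and 22 nucleolar genes (median -0.07, and -0.12 without DMSO replicate 2) lay above the median of all genes on the scale as deposited, by 0.18 and 0.11.

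The medians of several other lists were near 0 once DMSO replicate 2 was left out. The BCL2 family had a median of 0.25 with all arrays and -0.01 without that array, with 13 and 7 of 16 members above 0. Among all genes 48.5% and 49.1% lay above 0. The p53 targets had medians of 0.37 and 0.01, Wnt pathway genes of 0.37 and 0.06, lipid efflux targets of LXR of 0.23 and 0.00 and metallothioneins of 0.29 and 0.06. GADD45A, a stress-induced growth arrest gene, was at 426.8 and 1120 under DMSO and at 821.8 and 713.5 under diclofenac, so the groups overlapped, and it changed by 0.03 with all arrays and 0.71 without DMSO replicate 2, neither called. CDKN1A, the cell cycle inhibitor p21, changed by 0.24 (0.38).

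**Figure D4:**
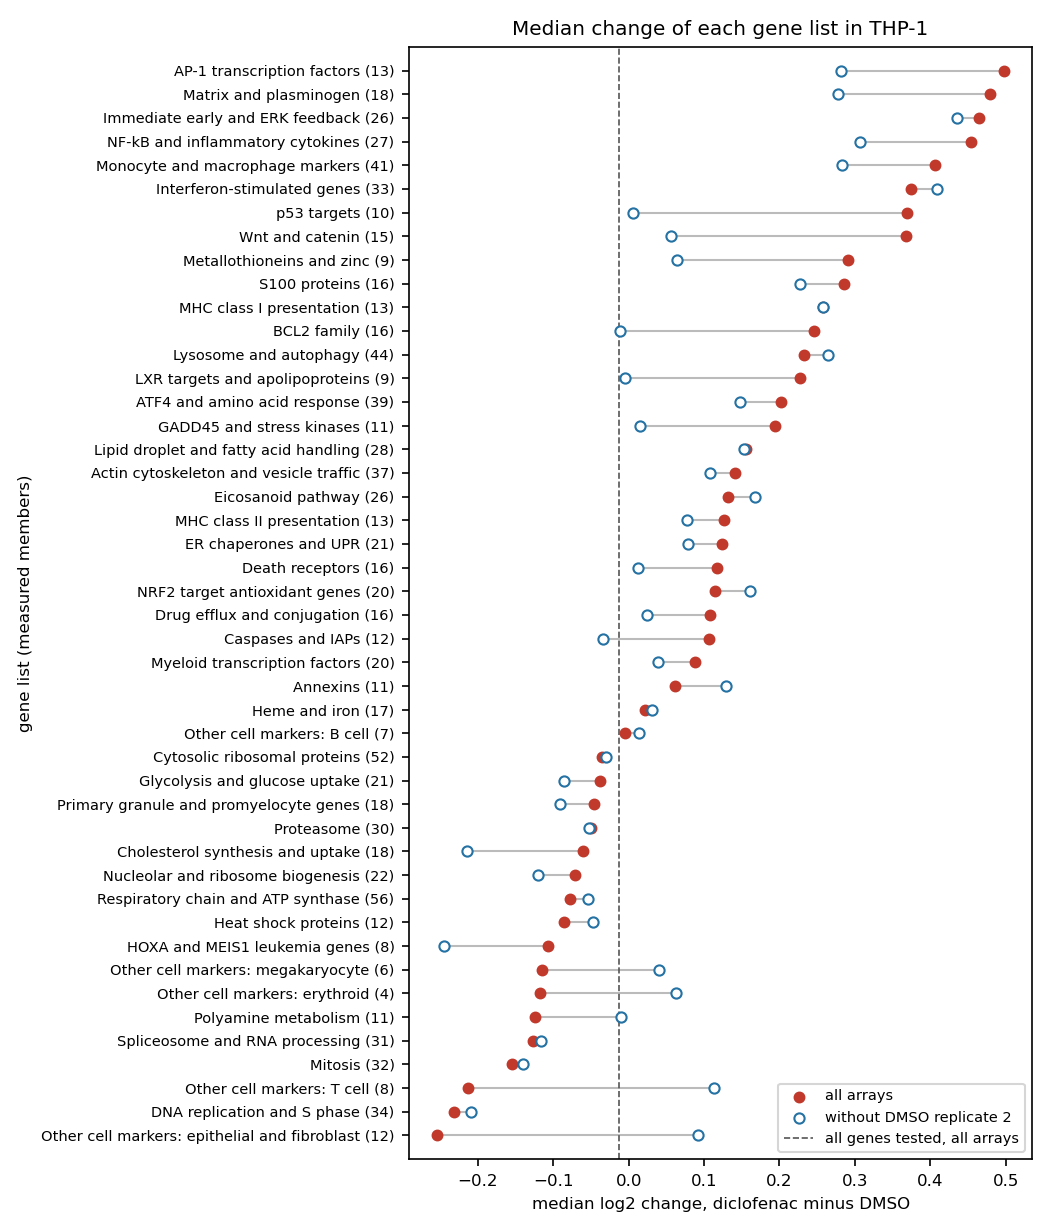
Median log2 change (diclofenac minus DMSO) of each gene list in THP-1 with all arrays (filled) and without DMSO replicate 2 (open), with the number of measured members in brackets; the dashed line is the median of all genes. The immediate early list lies at 0.46 and 0.44 and the class I list at 0.26 in both fits, whereas the p53 list moves from 0.37 to 0.01 and the T cell markers from -0.21 to 0.11.

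Markers of other cell types included no called gene. Above background on both arrays of at least 1 group were 3 of 8 T cell, 5 of 7 B cell and 1 of 4 red cell genes. So were 2 of 6 megakaryocyte and 4 of 12 epithelial and fibroblast genes. By the same rule 8598 of all 11963 genes were above background. Their summed intensities were higher on DMSO replicate 2 than on the other 3 THP-1 arrays for each of the 5 lists, at 1534.7 against 237.9 to 371 for T cells and 1673.2 against 576.8 to 756.4 for B cells. They were 702.4 against 218.3 to 278.4 for red cells, 1292 against 288 to 415.8 for megakaryocytes and 1730.2 against 330.1 to 450.2 for epithelium and fibroblasts. With all arrays the medians of the T cell and the epithelial and fibroblast lists were -0.21 and -0.25, and without DMSO replicate 2 they were 0.11 and 0.09. The part of background in these values was not tested.

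The same drug and dose were set beside each other in the 2 lines for the genes called in THP-1. Of the 19 genes that rose in THP-1, 17 lay above 0 in HL-60, where the median change was 0.29 against 1.12 in THP-1. The median over all genes in HL-60 was 0.002. Because the 19 were chosen by their change in THP-1, a smaller median in HL-60 does not by itself show a difference between the lines. PLIN2 was also called in HL-60, at 1.37 (SE 0.08, limma adjusted p 0.0028), and its effect differed between the lines by 0.18 (adjusted p 0.78). DUSP6 changed by 0.71 and TNFRSF21 by 0.77 in HL-60, neither called. ACSL1 (0.07), GPNMB (0.02), NDUFB7 (0.12) and DENND4B (0.11) were near 0 in HL-60, and LAP3 and NPTN were at -0.17 and -0.24. None of the 19 genes passed the test of the difference with all arrays, the smallest adjusted p being 0.0709 for ANXA1. Of these 19, ANXA1 (adjusted p 0.0284) and DENND4B (0.0015) passed it without DMSO replicate 2.

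**Figure D5:**
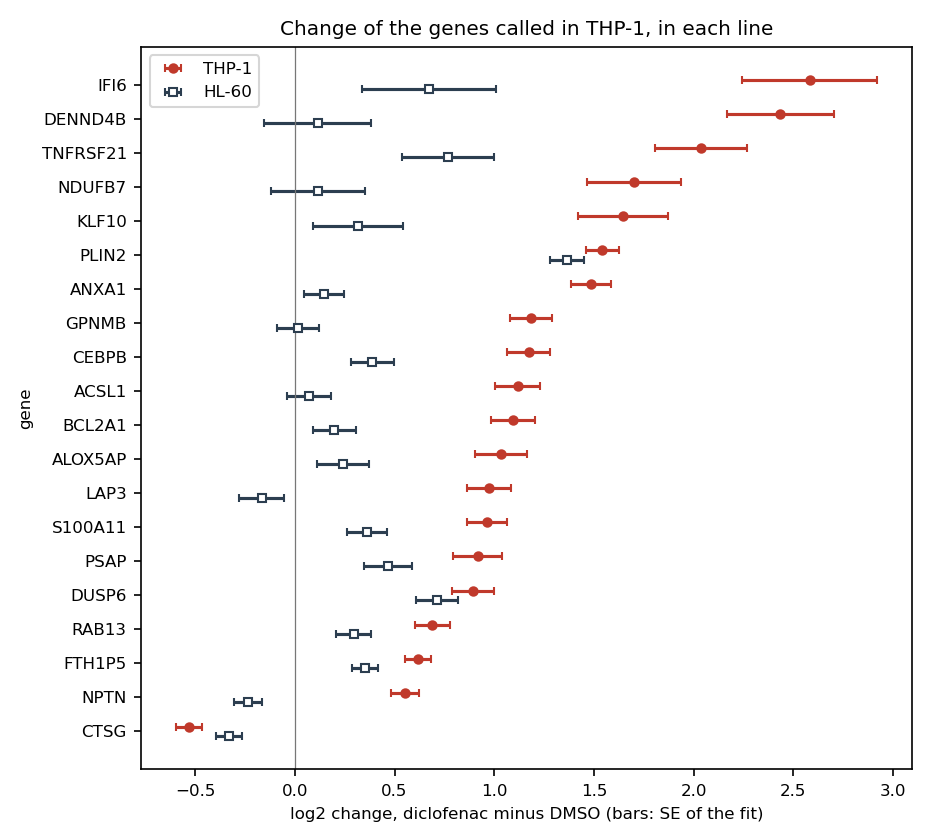
Log2 change (diclofenac minus DMSO) with its SE for the genes called in THP-1, in THP-1 (filled) and HL-60 (open), 2 arrays per group. PLIN2 lies at 1.54 and 1.37, whereas ACSL1, GPNMB, NDUFB7 and DENND4B lie at 0.12 or less in HL-60. The THP-1 value of TNFRSF21 is fitted against DMSO values below background.

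With all arrays the effect differed between the lines for 1 probe set (0.0045%), MTDH 212248_at, which rose by 0.84 in THP-1. Without DMSO replicate 2 the difference passed the threshold for 4 of 22215 probe sets (0.018%), those of ANXA1, DENND4B, S100P and MTDH. ANXA1 was at 1772.2 and 1868.8 in HL-60 under DMSO and at 2059.3 and 2079.8 under diclofenac, so that the diclofenac values of the 2 lines overlapped on this probe set. S100P was at 7691.2 and 8021.4 in HL-60 under DMSO and at 10718.9 and 12558.5 under diclofenac. DENND4B was at 2203.9 and 2530 in HL-60 under DMSO and at 2609.8 and 2633.1 under diclofenac. For all 3 genes the THP-1 DMSO arrays were the lowest of the 8 arrays, and the smaller change in HL-60 started from a higher level.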

How the data were processed

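Total RNA from 4 THP-1 and 4 HL-60 samples was labelled with biotin and hybridised to Affymetrix arrays, per the labels' protocols. The values are the authors' deposited linear intensity per probe set. The software behind them is not given in the sources used here, and the mean without the extreme 2% of values was 499.2 to 499.8 on every array. A direction was not in question, since each column holds 1 sample.

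The intensities were turned into log2(intensity + 50) and quantile normalized. The 62 control probe sets were left out and 22215 tested, of which 19064 had 1 gene symbol, 1043 several and 2108 none in GEO's platform annotation. The 11963 genes were each read from the probe set whose mean log2 value over all arrays was highest, passing over probe sets that may bind other transcripts except for the 460 genes that had no other. A model of group means over all 8 arrays was fitted with limma 3.58.1 in R 4.3.3, with an intensity trend, 4 residual and 4.41 prior degrees of freedom and Benjamini-Hochberg adjustment over all probe sets. Precision is limited by the number of arrays. The method was also run on simulated data. Those held neither the intensity trend nor the raised background of DMSO replicate 2. That run therefore does not test the calls given here. Figures were drawn with matplotlib 3.10.9.

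Replicate numbers were not treated as pairs. Same-numbered arrays deviated with a correlation of -0.01 in THP-1 and -0.004 in HL-60. The raised background of DMSO replicate 2 enters the THP-1 value, which therefore cannot exclude pairing. The genes and lists described were chosen with earlier results of these data known. Named genes are those called in either fit (of those called only without DMSO replicate 2, up to 10 per direction), up to 4 per list by smallest p above background in a group, up to 10 per direction with the largest change and an unadjusted p under 0.01 in both fits, 12 preset genes and genes whose effect differed between the lines, and the text gives a part of these. Alternatives were other scalings, offsets of 16 and 1, a filter on the dimmest 40%, other variance settings, THP-1 alone, a replicate block, each array left out and averaging the probe sets of each gene.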

Additional observations from a re-analysis of the deposited data

Results flagged for a closer look

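The effect of diclofenac differed between THP-1 and HL-60 in the test of the difference itself for the probe sets that follow. MTDH 212248_at was at 854.6 and 892.6 in THP-1 under DMSO and at 1587.9 and 1787 under diclofenac, whereas in HL-60 it was at 3759.2 and 4453.8 under DMSO and at 2190.8 and 2128 under diclofenac. The THP-1 effect minus the HL-60 effect was 1.79 on the log2 scale with all arrays (limma adjusted p 0.0391) and 1.87 without THP-1 DMSO replicate 2 (adjusted p 0.0284). The other MTDH probe sets, 212250_at and 212251_at, differed by -0.22 and 0.06 between the lines with all arrays. Without THP-1 DMSO replicate 2 the difference was 1.40 for ANXA1, 2.93 for DENND4B and 1.25 for S100P. With all arrays these 3 differences had adjusted p-values of 0.0709, 0.265 and 0.517.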

How the results depend on the processing

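The counts of calls in THP-1 depended on the processing. With all arrays 30 probe sets and 20 genes were called, and 1 probe set differed between the lines. On the deposited scale without quantile normalization the counts were 51, 31 and 2, and on that scale without THP-1 DMSO replicate 2, an alternative chosen after seeing the data, 76, 47 and 14. Background subtraction without quantile normalization left 4, 3 and 0 (PLIN2, ANXA1 and CEBPB), and median centring and a fit without the intensity trend left 0 of each, with 1038 probe sets higher and 667 lower, and 1105 and 926, at an unadjusted p under 0.05. Leaving out the dimmest 40% gave 53 and 37, THP-1 arrays alone gave 1 and 1 (PLIN2), and a robust variance fit and the replicate block left 0 for the difference between the lines. With the replicate block 31 probe sets and 22 genes were called. Leaving out 1 array at a time gave 0 to 6892 probe sets, 0 to 3899 genes and 0 to 4042 differences. The highest counts came without THP-1 DMSO replicate 1, when replicate 2 is the only control. Without THP-1 diclofenac replicate 1 the gene count was 1 and without replicate 2 it was 0. Without HL-60 DMSO replicate 1 or 2 it was 2, and without HL-60 diclofenac replicate 1 or 2 it was 3. Fewer arrays leave fewer residual degrees of freedom.

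None of the 20 called genes changed direction under the 20 alternatives. PLIN2 kept its call in 16 of them, ANXA1 in 15 and CEBPB and S100A11 in 11, RAB13 and NPTN in 6. The median of all genes was -0.16 on the deposited scale and 0.20 with median centring, where genes not called reversed: IRF8 to 0.18, RRM2 to 0.062, RRM1 to 0.27, CCNB2 to 0.083, NUSAP1 to 0.27, CKS2 to 0.23, MS4A3 to 0.019, ELANE to 0.34, FDPS to 0.28, IDI1 to 0.24, MSMO1 to 0.19 and MYC to 0.25. MPO reversed to -0.18 on the deposited scale and -0.049 with background subtraction. On the deposited scale without DMSO replicate 2, PTGS1 reversed to 0.40 and MPO was at -0.087. Leaving out single arrays moved GADD45A between -0.62 and 0.71, PTGS1 between -0.81 and 0.33 and MPO between -0.16 and 0.51. The cause was not tested. Genes below background on every array of a group carry only a bound.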
